A study of Mus musculus with 16 samples.

Results

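Ubiquitous intergenic regions are stretches of open chromatin that were called as peaks in all 16 ATAC-seq libraries of the series and that lie away from protein-coding genes. Overlapping or touching peaks of the 16 deposited lists were joined, which gave 102496 regions, of which 24955 were called in all 16 libraries. Of those, 6801 overlapped no RefSeq protein-coding gene body and lay more than 1 kb from every gene end, and these are the regions described. The other ubiquitous regions were 9942 within 1 kb of a gene end and 8212 inside genes. Of the 6801 intergenic regions, 2304 lay 1 to 10 kb from the nearest gene, 2889 lay 10 to 50 kb away and 1608 lay over 50 kb away. These regions were chosen by their peak calls, which rest on the deposited q, so their presence and their strength are given as a description with no test.

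In ATAC-seq the Tn5 transposase cuts and tags DNA that is not wrapped in nucleosomes. Open chromatin away from genes is known to hold enhancers, silencers, insulators bound by CTCF and the start sites of non-coding RNAs, and enhancers can act on genes over long distances. In blood progenitors many enhancers of lineage genes are open before the gene is in full use. IL-1β acts through the IL-1 receptor on NF-κB and on MAP kinases, whose targets include the AP-1 factors. The nearest gene is used below as a landmark only, since position does not show which gene a region acts on.

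Marrow of male C57Bl/6 mice was depleted of mature cells by the surface proteins CD3, CD4, B220, Ter119 and Gr1. There were 4 groups of 4 libraries: IL-1β-stimulated cells of mice made diabetic with streptozotocin, IL-1β-stimulated cells of control mice without streptozotocin, baseline cells of the diabetic mice and baseline cells of the control mice. Each of the 8 mouse samples was divided, so that its IL-1β portion (10 ng/mL, 6 h in culture) and its baseline portion, lysed at once, come from the same animal. Stimulation was never given without the 6 h culture, so the parts of each cannot be told apart. Ages and the time since streptozotocin are not given in the sources used here. The labels call the cells haematopoietic stem cells, but lineage-negative marrow also holds committed progenitors. A peak lay at or near 8 to 10 of 10 progenitor marker genes per library, at 5 of 5 erythroid, 4 to 5 of 5 granulocyte, 3 to 4 of 5 stroma and endothelium, 2 to 4 of 5 B cell and 1 to 4 of 5 T cell marker genes. In such bulk samples, a change in the share of cells of a type and a change within cells cannot be told apart.

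Libraries held 37543 to 72525 peaks, and background, the least number of reads expected per window, ran from 0.856 to 1.71 reads. Control IL-1β replicate 2 had the fewest peaks and diabetic baseline replicate 4 the lowest background. Without either library the rule would have returned 7816 and 7428 intergenic regions, and without any other library 6802 to 6937. Reads at each region's highest summit, recovered from the deposited fold and p, were scaled to the same median in every library, and these scaled reads are the unit of all values per region. Tests are limma on log2 reads over all 24955 ubiquitous regions, and a region is said to have risen or fallen where its Benjamini-Hochberg adjusted p is below 0.05. They rest on 4 mouse samples per phenotype.

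The sequences below are start sites of non-coding RNAs that lie wholly inside ubiquitous intergenic regions, 250 bases before to 50 after the start, taken from RefSeq (build GRCm38.p6, with the same main-chromosome coordinates as the mm10 peak lists). Capitals mark the AP-1 site TGANTCA and the PU.1 site GAGGAAG. The first 4 belong to regions that rose after IL-1β, the fifth to a region that fell, the sixth to a further region that rose (Morrbid, a long non-coding RNA known to lengthen the life of short-lived myeloid cells) and the last pair to strong regions that passed no test (Dancr and Snhg15, broadly used non-coding RNA genes).
Gm40491, chr12:86833714-86834013, minus strand: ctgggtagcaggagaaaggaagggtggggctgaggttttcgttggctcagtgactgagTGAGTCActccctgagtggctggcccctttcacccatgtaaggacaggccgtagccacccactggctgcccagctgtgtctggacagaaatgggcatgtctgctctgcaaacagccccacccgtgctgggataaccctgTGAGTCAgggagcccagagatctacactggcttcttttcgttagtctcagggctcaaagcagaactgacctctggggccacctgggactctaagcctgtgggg
Gm19705, chr1:136683146-136683445, plus strand: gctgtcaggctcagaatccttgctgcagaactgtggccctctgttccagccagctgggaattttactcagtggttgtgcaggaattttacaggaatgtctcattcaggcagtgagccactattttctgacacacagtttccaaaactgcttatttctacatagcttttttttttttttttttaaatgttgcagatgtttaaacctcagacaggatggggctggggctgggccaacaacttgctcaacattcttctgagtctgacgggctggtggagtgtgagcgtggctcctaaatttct
Gm31583, chr16:24090016-24090315, minus strand: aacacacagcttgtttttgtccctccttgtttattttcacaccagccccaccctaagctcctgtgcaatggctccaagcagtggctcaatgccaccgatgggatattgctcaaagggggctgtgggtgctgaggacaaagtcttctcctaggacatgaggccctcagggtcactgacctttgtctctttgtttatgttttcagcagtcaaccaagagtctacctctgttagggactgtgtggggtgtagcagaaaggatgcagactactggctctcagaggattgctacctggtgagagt
Gm33728, chr10:21252193-21252492, minus strand: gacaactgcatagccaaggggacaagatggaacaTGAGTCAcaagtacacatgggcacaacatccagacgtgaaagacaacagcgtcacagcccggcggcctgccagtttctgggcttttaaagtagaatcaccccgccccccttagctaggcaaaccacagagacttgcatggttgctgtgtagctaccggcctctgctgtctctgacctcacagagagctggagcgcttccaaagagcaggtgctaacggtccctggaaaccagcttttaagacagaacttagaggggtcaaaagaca
Gm46828, chr3:144232197-144232496, minus strand: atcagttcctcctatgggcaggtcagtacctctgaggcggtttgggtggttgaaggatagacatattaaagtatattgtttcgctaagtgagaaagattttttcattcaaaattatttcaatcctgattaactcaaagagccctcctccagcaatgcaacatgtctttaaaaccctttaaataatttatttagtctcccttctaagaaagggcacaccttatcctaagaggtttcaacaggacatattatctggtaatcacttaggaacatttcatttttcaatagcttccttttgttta
Morrbid, chr2:128429302-128429601, minus strand: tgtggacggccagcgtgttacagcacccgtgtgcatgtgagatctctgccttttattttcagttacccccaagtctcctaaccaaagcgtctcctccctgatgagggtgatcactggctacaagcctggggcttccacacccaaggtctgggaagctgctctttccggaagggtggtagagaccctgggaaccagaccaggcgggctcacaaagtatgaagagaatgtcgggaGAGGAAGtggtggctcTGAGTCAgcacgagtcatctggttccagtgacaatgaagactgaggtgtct
Dancr, chr5:74092810-74093109, plus strand: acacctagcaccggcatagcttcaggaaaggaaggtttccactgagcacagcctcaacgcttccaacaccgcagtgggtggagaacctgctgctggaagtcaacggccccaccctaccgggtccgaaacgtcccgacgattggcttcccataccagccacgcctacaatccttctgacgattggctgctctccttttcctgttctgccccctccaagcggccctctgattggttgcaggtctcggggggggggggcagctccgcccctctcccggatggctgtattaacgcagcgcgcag
Snhg15, chr11:6528711-6529010, minus strand: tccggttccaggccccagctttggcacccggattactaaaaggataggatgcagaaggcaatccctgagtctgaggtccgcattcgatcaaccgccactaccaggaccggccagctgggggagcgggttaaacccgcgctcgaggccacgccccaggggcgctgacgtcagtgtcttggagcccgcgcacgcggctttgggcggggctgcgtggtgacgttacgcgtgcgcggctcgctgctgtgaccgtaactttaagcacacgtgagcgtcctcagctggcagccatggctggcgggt

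The AP-1 letters TGANTCA, which read the same on both strands, stood in the Gm40491, Gm33728 and Morrbid windows and in none of the other windows printed. The search covered both strands, and no site found in a printed window shared bases with a site of another motif. Of 218 non-coding start-site windows that lay wholly inside intergenic regions, 10.6% held TGANTCA, beside 7.93% of 27025 RefSeq promoters of the same length. Among them, 6 of 15 windows in regions that rose held it and 0 of 10 in regions that fell. The PU.1 letters GAGGAAG stood in 23.4% of the 218 windows and in 13.5% of all promoters, in 5 of 15 windows of risen regions and 3 of 10 of fallen regions. The NF-κB motif searched, of 10 letters, stood in 2.29% of the 218 windows and 1.62% of all promoters, in 0 of 15 windows of risen regions and 1 of 10 of fallen regions. These matches are a description of letters in the windows, and the windows are fewer than the regions they stand for.

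A total of 8 of the intergenic regions overlapped microRNA genes. Mature sequences of the best known of them follow, with the seed, bases 2 to 8, in capitals. miR-142a is a microRNA of blood cells, let-7i belongs to the let-7 family that restrains growth genes, and miR-132-3p and miR-212-3p share the seed AACAGUC and come from neighbouring genes within 1 region. miR-203-3p is best known from skin. The hairpins of let-7i, miR-132, miR-212 and miR-203 lie wholly inside their regions, whereas 17 of the 64 bases of the Mir142 hairpin do, with part of miR-142a-5p and none of miR-142a-3p.
mmu-miR-142a-5p: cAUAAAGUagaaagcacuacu
mmu-miR-142a-3p: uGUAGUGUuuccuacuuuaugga
mmu-let-7i-5p: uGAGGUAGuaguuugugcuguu
mmu-miR-132-3p: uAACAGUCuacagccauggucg
mmu-miR-212-3p: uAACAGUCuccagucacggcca
mmu-miR-203-3p: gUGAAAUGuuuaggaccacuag

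Only the region at the edge of Mir142 passed the test among these 8 regions. It lies 1.31 kb from Tspoap1 at chr11:87756372-87756880 and held 57.0 to 111 scaled reads (median 91.8) in the IL-1β libraries, against 42.2 to 83.4 (median 67.5) in the baseline libraries (log2 change 0.42, SE 0.11, limma adjusted p = 0.0203). Reads were higher after IL-1β in 8 of 8 mice, with overlap between the groups of libraries, and with libraries scaled by background the change was 0.15 (adjusted p = 0.410). The let-7i region held 81.3 to 100.04 scaled reads (median 93.0) in the IL-1β libraries, against 73.0 to 113 (median 81.9) in the baseline libraries (adjusted p = 0.387). The region of Mir132 and Mir212 held 32.9 to 44.0 scaled reads (median 39.1) in the IL-1β libraries, against 30.2 to 46.7 (median 40.1) in the baseline libraries (adjusted p = 0.932). Near Mir203 the medians were 17.5 scaled reads after IL-1β and 18.2 at baseline (adjusted p = 0.819). In these last 3 regions the IL-1β and baseline libraries overlapped.

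Strength was read as the deposited fold enrichment over local background at each region's highest summit. The median intergenic region had a fold of 8.30 ± 0.94 (mean of library medians ± SD, n = 16 libraries), against 8.11 ± 0.87 for regions inside genes and 10.9 ± 0.57 for regions near gene ends. It increased with distance from genes, with 7.80 ± 0.83 at 1 to 10 kb, 8.45 ± 0.97 at 10 to 50 kb and 8.66 ± 1.06 over 50 kb. That order of the 3 classes held in 16 of 16 libraries, although the library medians of the classes overlapped widely (6.28 to 9.02, 6.58 to 9.88 and 6.62 to 10.2). The distal regions were thus stronger over background than proximal ones within every library, while summit reads ran the other way, with medians of 31.0, 28.3 and 27.2 scaled reads from near to far, against 64.4 near gene ends. Intergenic regions were narrow, with median merged widths of 529, 573 and 581.5 bp from near to far against 907 bp near gene ends, and 61.8%, 57.4% and 55.0% of them had a single summit in every library. Regions inside genes were much like them, with a median width of 578 bp and a single summit in 55.2%.

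**Figure D1:**
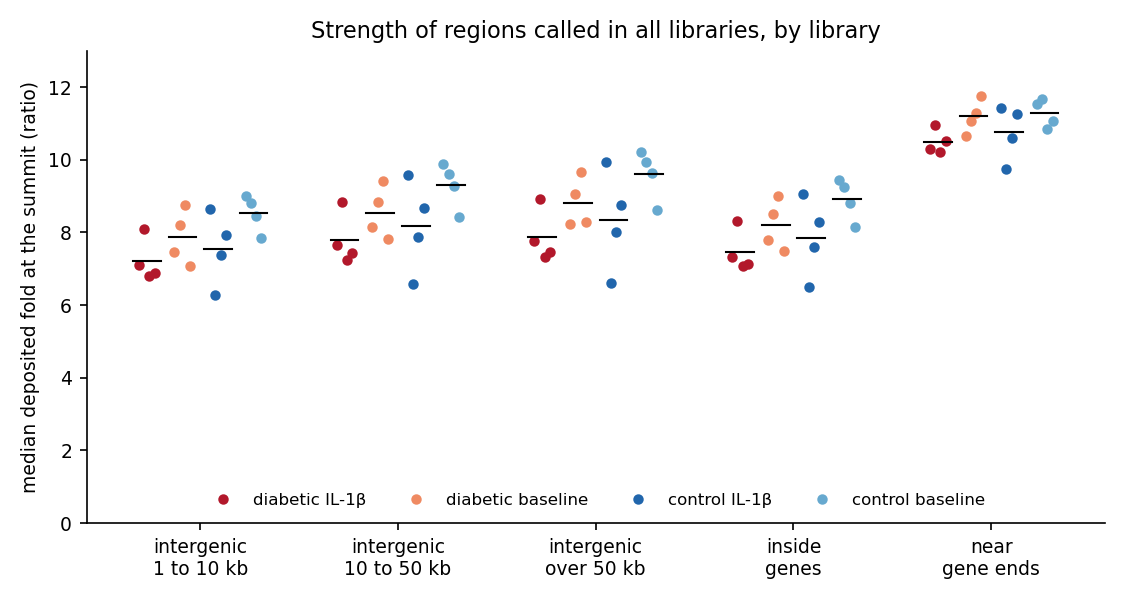
Median deposited fold at the summit (a ratio over local background, linear axis from 0) for intergenic regions by distance class, regions inside genes and regions near gene ends, 1 point per library and a line at the mean of each group of 4 libraries. The mean of the library medians is 7.80, 8.45 and 8.66 from the nearest to the farthest class, and regions near gene ends stand at 10.9.

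By group, the median fold over 50 kb was 7.87 ± 0.72 in diabetic IL-1β libraries, against 8.82 ± 0.68 in diabetic baseline libraries (SD, n = 4 each). In control mice it was 8.34 ± 1.39 in IL-1β libraries, against 9.60 ± 0.70 in baseline libraries (SD, n = 4 each). Signal over background was thus lower on average after IL-1β in both phenotypes, with overlapping libraries. This bears on every count below, because equal medians remove such a general shift and scaling by background keeps it.

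The strongest region of all had a mean fold of 31.4 over the 16 libraries and lies 35.2 kb upstream of Pak3, a kinase acting on the actin skeleton, at chrX:143482906-143483206. It held 64.6 to 106 scaled reads (median 88.2) in the IL-1β libraries, against 56.2 to 121 (median 70.8) in the baseline libraries, without passing the test (adjusted p = 0.322). Over 50 kb from genes the strongest were the regions 61.5 kb from Gng4, a G protein subunit (mean fold 22.7), and 61.3 kb from Gm15319 (mean fold 21.3). Within 10 kb the strongest lies 1.56 kb from Gltp, a glycolipid transfer protein (mean fold 21.5). The second strongest at 10 to 50 kb, 13.5 kb from Uspl1, covers a tRNA gene and 2310047D07Rik (mean fold 21.3). None of these 5 regions passed the test for IL-1β, with adjusted p from 0.204 to 0.941.

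The 2 regions farthest from any protein-coding gene lie 2137538 bp from Cntnap5b at chr1:102628137-102628400 and 1641896 bp from Pcdh18 at chr3:48100797-48101395. They were called in all 16 libraries with mean folds of 9.44 and 13.8. The first held 14.0 to 24.4 scaled reads (median 19.9) in the IL-1β libraries, against 15.6 to 26.2 (median 19.7) in the baseline libraries (adjusted p = 0.975). The second held 17.8 to 32.1 scaled reads (median 28.2) in the IL-1β libraries, against 26.4 to 59.6 (median 35.0) in the baseline libraries (log2 change -0.45, adjusted p = 0.0761). With a block for mouse the second passed (adjusted p = 0.0266), and with background scaling it changed by -0.72 (adjusted p = 0.0112). The groups overlapped in both regions.

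At the 1 kb limit, the last regions left out lay 999 bp from Hs1bp3 and 998 bp from Ier2 and held medians of 33.4 and 88.1 scaled reads after IL-1β, against 31.6 and 91.7 at baseline. The first regions kept lay 1004 bp from Lfng and 1015 bp from Prkch, with 70.4 and 92.2 after IL-1β, against 33.2 and 82.6 at baseline.

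After IL-1β, reads rose at 590 intergenic regions (8.68%) and fell at 347 (5.10%), beside 6.42% risen and 3.4% fallen among all 24955 ubiquitous regions. Regions inside genes gave 8.99% and 4.34%, close to the intergenic shares, and regions near gene ends 2.77% and 1.46%. The shares grew with distance from genes: 188 rose and 86 fell at 1 to 10 kb (8.16% and 3.73%), 246 and 140 at 10 to 50 kb (8.52% and 4.85%), and 156 and 121 over 50 kb (9.70% and 7.52%). The spread of the log2 change widened too, with SDs of 0.28, 0.30 and 0.33 from near to far. No test of the difference between classes was run. A block for mouse gave 850 rises and 510 falls, beside 9.62% and 5.19% of all regions, and 134 of the falls lay at 1 to 10 kb.

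The balance of rises and falls depended on the scaling. Equal medians set the median change of all regions at 0.03 on the log2 scale, and scaling by background reads set it at -0.24. On background scaling 97 intergenic regions rose and 875 fell, beside 0.813% and 9.39% of all regions. By class 29 rose and 239 fell at 1 to 10 kb, 45 and 357 at 10 to 50 kb, and 23 and 279 over 50 kb. All of those 97 rises and all 347 falls of the equal-median count passed under both scalings. Background scaling lowered the log2 change of every region by the same amount, so this overlap was largely fixed in advance. Passing under both scalings therefore adds no support for a fall. The fallen share was highest over 50 kb on either scale (7.52% and 17.4%), while the risen share over 50 kb was highest only on equal medians. Leaving out diabetic baseline replicate 4 gave 778 rises and 581 falls, 585 and 340 of them shared with the full count. The share of all ubiquitous regions in that fit is not given here, so these counts cannot be set beside it.

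**Figure D2:**
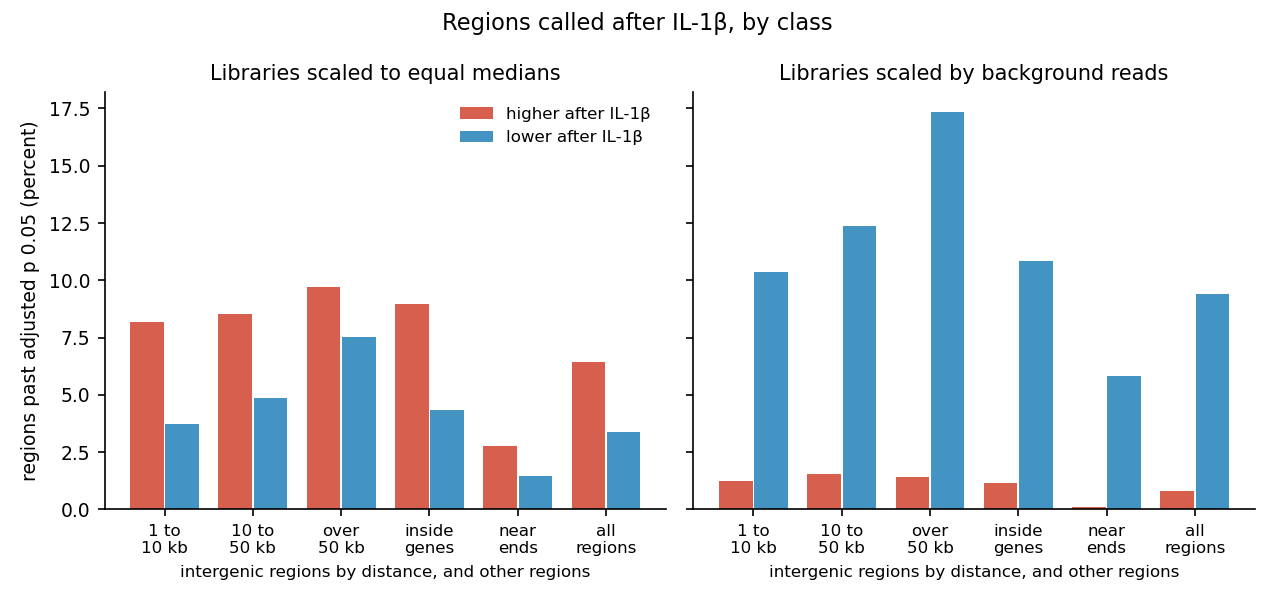
Percent of regions past adjusted p 0.05 that were higher or lower after IL-1β, with libraries scaled to equal medians (left) or by background reads (right), for intergenic regions by distance, regions inside genes, regions near gene ends and all ubiquitous regions. The fallen share is highest over 50 kb in both panels, at 7.52% and 17.4%.

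Complete separation of the groups was rarer. In 156 intergenic regions (2.29%) all 8 IL-1β libraries were above all 8 baseline libraries, beside 1.58% of all regions, and in 63 (0.926%) all were below, beside 0.645%. Read depth moved with the calls: 12.2% of the intergenic regions with the most reads rose, beside 7.76% of the middle and 6.09% of the lowest class, when regions were divided into 3 equal classes by mean reads. Falls numbered 118, 147 and 82 in the same order, highest in the middle class.

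Over 50 kb from any gene, the largest rise lay 97.2 kb upstream of Dlx2, a homeobox gene of forebrain and jaw development, at chr2:71643949-71644487. It held 27.1 to 55.6 scaled reads (median 45.5) in the IL-1β libraries, against 7.52 to 19.6 (median 15.96) in the baseline libraries (log2 change 1.56, SE 0.18, limma adjusted p = 4.64e-06). Every IL-1β library stood above every baseline library. Next came a region 140.0 kb upstream of Hmga2, an architectural chromatin protein known for self-renewal of fetal blood stem cells, with 19.0 to 44.3 scaled reads (median 32.0) in the IL-1β libraries, against 6.68 to 16.1 (median 10.9) in the baseline libraries (log2 change 1.51, SE 0.16, limma adjusted p = 2.77e-06). These groups did not overlap either. The region 69.2 kb upstream of Slc4a7, a bicarbonate transporter, held 32.9 to 60.8 scaled reads (median 39.5) in the IL-1β libraries, against 10.2 to 29.1 (median 15.7) in the baseline libraries (log2 change 1.35, SE 0.16, limma adjusted p = 7.21e-06). The fourth, 65.5 kb from Pkd1l1, a polycystin, held 16.2 to 31.8 scaled reads (median 24.7) in the IL-1β libraries, against 5.85 to 17.3 (median 9.44) in the baseline libraries, with a small overlap (log2 change 1.32, SE 0.19, limma adjusted p = 5.93e-05). In all 4, reads were higher after IL-1β in each of the 8 mice, and all passed with background scaling, where their changes were 1.29, 1.24, 1.08 and 1.05.

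The largest fall over 50 kb lay 135 kb upstream of Nrp1, neuropilin 1, a receptor for semaphorins and VEGF, within the non-coding A930035F09Rik. It held 9.52 to 16.8 scaled reads (median 15.02) in the IL-1β libraries, against 23.4 to 43.6 (median 32.3) in the baseline libraries (log2 change -1.20, SE 0.15, limma adjusted p = 1.33e-05), and the groups did not overlap. The region 79.9 kb from Sh3bp4, an adaptor of endocytosis, held 15.2 to 29.7 scaled reads (median 23.7) in the IL-1β libraries, against 34.6 to 55.4 (median 41.7) in the baseline libraries, again with no overlap (log2 change -0.97, SE 0.14, limma adjusted p = 8.38e-05). Regions near Mmadhc, a gene of vitamin B12 handling (253 kb away), and Mid1ip1, a regulator of fat synthesis (152 kb away), fell by 0.96 and 0.94 on the log2 scale with overlapping libraries (adjusted p = 0.000610 and 0.00404). All 4 were lower after IL-1β in 8 of 8 mice.

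**Figure D3:**
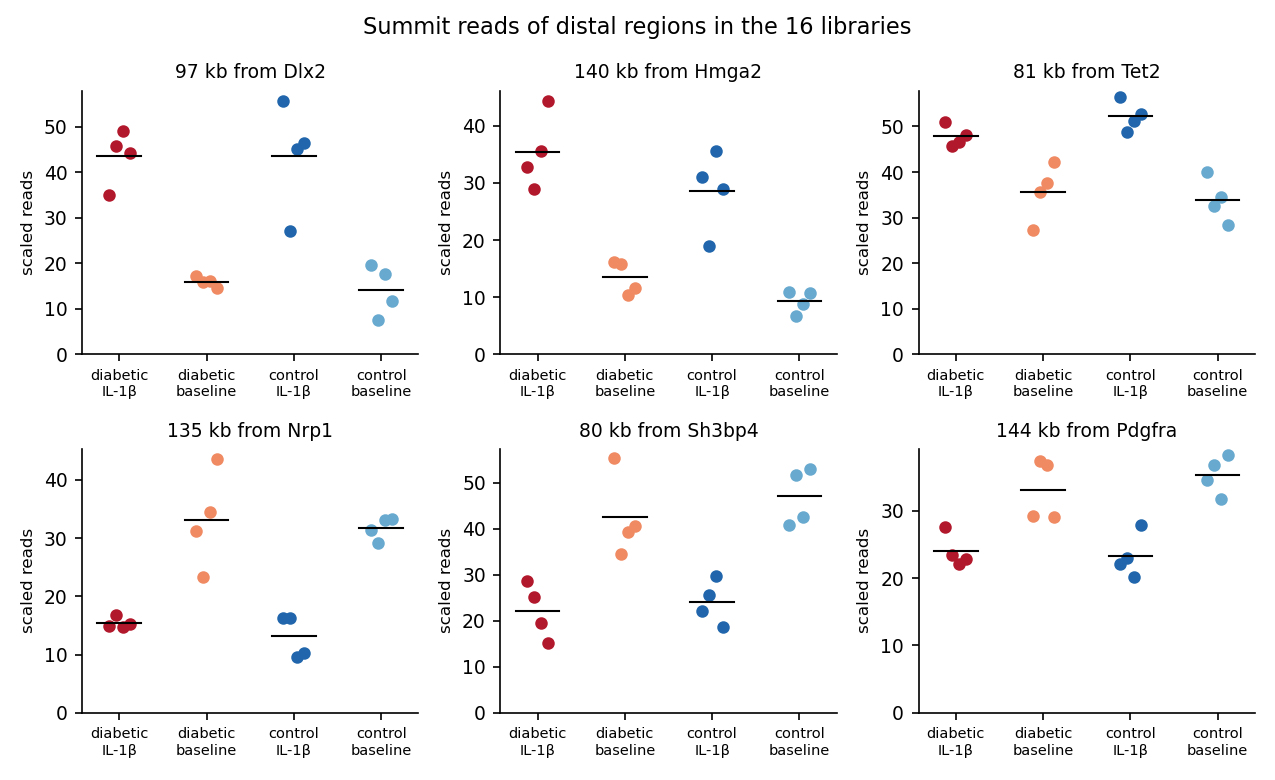
Scaled summit reads (linear axes from 0) of 6 regions over 50 kb from their nearest gene, 1 point per library and a line at each group's mean, IL-1β beside baseline for diabetic and control mice. The regions near Dlx2, Hmga2 and Tet2 are higher in IL-1β libraries and those near Nrp1, Sh3bp4 and Pdgfra lower, in both phenotypes.

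Between 10 and 50 kb the 4 largest rises stood within a narrow range of log2 change, 1.28 to 1.33. They lay near Grhl1 (a grainyhead factor), Rest (a repressor of neuronal genes), Gm38664 and Rasa2 (a GTPase-activating protein that restrains Ras). The Rasa2 region, 18.3 kb upstream at chr9:96649892-96650317, held 42.5 to 69.0 scaled reads (median 51.8) in the IL-1β libraries, against 13.1 to 29.0 (median 22.1) in the baseline libraries (log2 change 1.28, SE 0.14, limma adjusted p = 2.48e-06). The other 3 also showed no overlap between IL-1β and baseline libraries. Among the falls, a region 49.8 kb upstream of Agps, an enzyme of ether lipid synthesis, held 13.5 to 25.2 scaled reads (median 21.0) in the IL-1β libraries, against 21.8 to 61.8 (median 47.0) in the baseline libraries (log2 change -1.19, SE 0.16, limma adjusted p = 2.81e-05). Its groups overlapped, but reads were lower in 8 of 8 mice. The falls near Suco (-1.68), Tnfsf15 (-1.12) and Dusp6 (-1.09) showed no overlap.

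At 1 to 10 kb the largest rises were near Ankrd12 (2.07), Kcnn4 (1.47), Otud4 and Mefv. The region 1.23 kb from Otud4, a deubiquitinase, held 19.0 to 41.8 scaled reads (median 29.4) in the IL-1β libraries, against 5.85 to 20.4 (median 12.3) in the baseline libraries (log2 change 1.25, SE 0.21, limma adjusted p = 0.000307). Upstream of Mefv, which encodes pyrin, an inflammasome sensor of myeloid cells, a region at 4.88 kb held 25.7 to 57.7 scaled reads (median 51.3) in the IL-1β libraries, against 12.5 to 28.3 (median 20.4) in the baseline libraries (log2 change 1.23, SE 0.19, limma adjusted p = 0.000102). In both regions 8 of 8 mice were higher after IL-1β while the groups overlapped slightly. Falls in this class lay near Tbc1d10c (-1.11), Tsc22d3 (-1.07), Hao1 and Dusp1 (-0.84). The region 8.28 kb from Hao1, a liver oxidase of glycolate, held 15.9 to 25.5 scaled reads (median 19.1) in the IL-1β libraries, against 29.9 to 46.5 (median 37.7) in the baseline libraries (log2 change -0.95, SE 0.14, limma adjusted p = 5.75e-05), with no overlap.

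Of these falls, 2 turned direction when the deposited fold replaced summit reads: Tsc22d3 at 0.02 (adjusted p = 0.912) and Dusp1 at 0.34 (adjusted p = 0.0411). The deposited fold divides by a local background that differs between regions, and the cause of the turn was not tested.

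The regions were spread over 3721 nearest genes, 2257 of them with a single region and 199 with 5 or more. Among the 12 genes with the most regions, Id2 and Zfp36l2 had the most rises. Counts at these 12 genes are read beside 6.42% risen and 3.4% fallen among all ubiquitous regions. Id2, an inhibitor of E proteins that steers progenitors away from B cell fate, was nearest to 16 regions between 2.59 and 293 kb away, of which 9 rose and 0 fell (median log2 change 0.46). The strongest change there, 94.2 kb from the gene at chr12:25190342-25190811, held 24.4 to 51.5 scaled reads (median 32.9) in the IL-1β libraries, against 14.5 to 21.6 (median 18.7) in the baseline libraries (log2 change 0.89, SE 0.15, limma adjusted p = 0.000455). A region at 216 kb held 37.99 to 51.4 scaled reads (median 45.0) in the IL-1β libraries, against 15.99 to 36.3 (median 28.6) in the baseline libraries (log2 change 0.74, SE 0.13, limma adjusted p = 0.000498). The groups did not overlap in either. The farthest of the 16, at 293 kb, also rose (0.50, adjusted p = 0.00471), while that nearest the gene, at 2.59 kb, did not pass (0.17, adjusted p = 0.406).

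Zfp36l2 encodes a zinc finger protein that speeds the decay of messenger RNAs with AU-rich elements and is required by blood stem cells. Of its 15 regions, 9 rose and 0 fell (median 0.39), and all 9 lay within 82.7 kb of the gene. The region at 66.8 kb held 73.8 to 87.1 scaled reads (median 82.6) in the IL-1β libraries, against 43.9 to 60.4 (median 50.4) in the baseline libraries (log2 change 0.69, SE 0.08, limma adjusted p = 3.35e-06). At 1.802 kb, next to the gene, a region held 68.7 to 88.0 scaled reads (median 80.6) in the IL-1β libraries, against 51.8 to 66.4 (median 55.5) in the baseline libraries (log2 change 0.48, SE 0.07, limma adjusted p = 0.000117). Further rises at 37.6 kb and 42.3 kb reached 0.72 and 0.74. The groups did not overlap in these 4 regions, and the 2 regions farthest out, at 122 and 155 kb, did not pass. With background scaling 1 of the 9 rises at Id2 and 1 of the 9 at Zfp36l2 kept its call, with medians of 0.19 and 0.12 beside a median of -0.24 over all regions.

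Irf2bp2, a corepressor gene, and Tomm20, a mitochondrial import receptor gene, were nearest to 18 and 13 regions of the same stretch of chromosome 8, of which 2 and 4 rose and 0 fell. Of the 6 rises, 4 were large. The region 89.7 kb from Irf2bp2 held 31.1 to 44.0 scaled reads (median 35.2) in the IL-1β libraries, against 8.83 to 26.7 (median 13.5) in the baseline libraries (log2 change 1.31, SE 0.17, limma adjusted p = 1.90e-05), and that at 36.9 kb changed by 0.91. Those 133 kb and 62.5 kb from Tomm20 changed by 1.02 and 0.91. These 4 regions showed no overlap and passed with background scaling too. The other 2, at 80.3 and 126 kb from Tomm20, rose by 0.48 and 0.46 with overlap and did not pass with background scaling (adjusted p = 0.299 and 0.407). Most other regions of the stretch had changes near 0, with medians of 0.04 for Irf2bp2 and 0.14 for Tomm20.

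Cited2, a partner of the coactivators CBP and p300 that maintains blood stem cells, had 19 regions from 7.34 to 1070 kb away, of which 0 rose and 2 fell, with a median of -0.26 and 3 of 19 values above 0. The fall at 172 kb had 11.4 to 26.2 scaled reads (median 21.1) in the IL-1β libraries, against 27.5 to 42.2 (median 34.4) in the baseline libraries, with no overlap (log2 change -0.76, SE 0.16, limma adjusted p = 0.00277). On background scaling 7 of the 19 fell, beside 9.39% of all regions and 12.9% of all intergenic regions. Kctd12 had 15 regions with 0 rises and 3 falls, and Dusp6, a phosphatase of ERK kinases, 13 regions with 0 rises and 3 falls, although the median of its regions was 0.05. At Klf6, a zinc finger factor induced by injury, all 13 values were below 0, from -0.48 to -0.02, and 1 fell. Eea1, a tether of early endosomes, had 20 regions with 1 rise and 3 falls. Adgrl2 and Thbs1 had 13 and 15 regions with 1 rise each. Among all regions 6.42% rose and 3.4% fell. With the mouse block 2 regions rose at Dusp6, 3 at Eea1, 2 at Adgrl2 and 1 at Kctd12. The counts of falls that differed were 3 at Cited2, 4 at Eea1 and 1 each at Adgrl2 and Thbs1. With that block 9.62% rose and 5.19% fell among all regions.

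**Figure D4:**
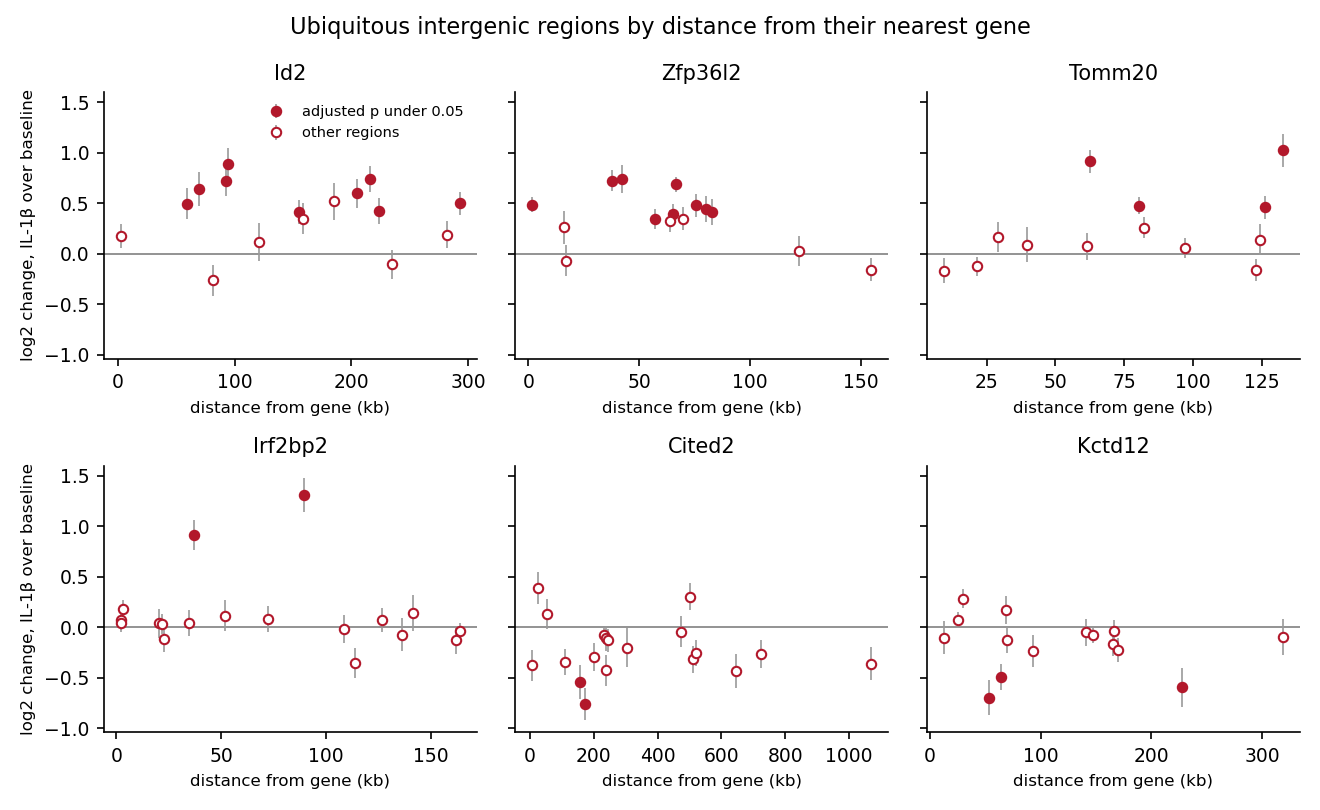
Log2 change in scaled reads (IL-1β over baseline) of each region by its distance from the nearest gene, for 6 genes with many ubiquitous intergenic regions; filled points passed adjusted p 0.05 and bars are SE. At Id2 and Zfp36l2 9 regions each are filled above 0, at Tomm20 and Irf2bp2 4 and 2, and at Cited2 and Kctd12 2 and 3 are filled below 0.

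Changes of neighbouring regions were related over short distances. Adjacent intergenic regions at most 10 kb apart had log2 changes that correlated by Pearson's r of 0.34 over 1577 pairs, with r of 0.20 over 1725 pairs 10 to 50 kb apart and 0.05 over 3478 pairs further apart. These are descriptions across pairs of sites that share libraries and scaling. Of the pairs within 10 kb, both regions rose in 50, both fell in 12, and 1 rose while 1 fell in 7.

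By gene list, the shares of risen and fallen regions are read beside 6.42% risen and 3.4% fallen among all regions. The lists hold intergenic regions only, of which 8.68% rose and 5.10% fell, so list shares near these are not raised. Of 32 regions near IL-1 receptor and NF-κB genes 3 rose (9.38%) and 0 fell (median -0.07), and 2 of the rises lay upstream of Bcl3, a nuclear IκB protein that acts with NF-κB. The region at 1.17 kb held 75.7 to 92.0 scaled reads (median 82.4) in the IL-1β libraries, against 37.3 to 56.4 (median 50.0) in the baseline libraries (log2 change 0.75, SE 0.08, limma adjusted p = 2.15e-06). That at 7.81 kb rose by 0.38 (adjusted p = 0.00352). In neither did the groups overlap, and the first passed with background scaling as well. Of 36 regions near cytokine and chemokine genes 5 rose (13.9%) and 4 fell (11.1%; median -0.02). A region 13.1 kb from Il10, the anti-inflammatory cytokine, held 49.1 to 69.0 scaled reads (median 63.8) in the IL-1β libraries, against 24.7 to 52.6 (median 37.3) in the baseline libraries, with slight overlap (log2 change 0.73, SE 0.11, limma adjusted p = 0.000169). Another, 19.6 kb from Ccl5, a chemokine, held 19.6 to 34.1 scaled reads (median 25.8) in the IL-1β libraries, against 11.6 to 18.1 (median 14.1) in the baseline libraries without overlap (log2 change 0.82, SE 0.15, limma adjusted p = 0.000643). With background scaling neither passed (adjusted p = 0.0585 near Il10 and 0.0763 near Ccl5). On that scale 0 cytokine and chemokine regions rose and 9 fell, beside 0.813% and 9.39% of all regions. Near IL-1 receptor and NF-κB genes 1 rose and 5 fell on that scale. With the mouse block 5 IL-1 receptor and NF-κB regions rose and 2 fell, and 5 cytokine and chemokine regions rose and 8 fell, beside 9.62% and 5.19% of all regions.

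Of 83 regions near immediate early and AP-1 genes 8 rose (9.64%) and 7 fell (8.43%), beside 6.42% and 3.4% of all regions (median 0.01), with changes from -1.09, at Dusp6, to 1.07. Among 15 regions near glucocorticoid-responsive genes 4 rose (26.7%) and 2 fell (13.3%). The 2 falls are the regions near Dusp1 and Tsc22d3 given above, which turned direction on the deposited fold. With the mouse block 4 of the 15 rose and 4 fell, and of the 83 regions 12 rose and 10 fell, beside 9.62% and 5.19%. With background scaling 0 of the 15 rose and 5 fell, and of the 83 regions 2 rose and 18 fell, beside 0.813% and 9.39%. The medians of these lists lay close to that of all ubiquitous regions, 0.03.

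Near granule and neutrophil genes 3 of 20 regions rose and 0 fell (median 0.13), beside 6.42% and 3.4% of all regions. With background scaling 1 of the 20 rose and 4 fell, beside 0.813% and 9.39% of all regions. The largest rise lay 11.3 kb upstream of Itgam, which encodes the CD11b integrin of myeloid cells, with 60.5 to 79.7 scaled reads (median 70.7) in the IL-1β libraries, against 10.2 to 41.6 (median 34.3) in the baseline libraries (log2 change 1.23, SE 0.18, limma adjusted p = 7.28e-05). The groups did not overlap, and the change with background scaling was 0.96 (adjusted p = 9.01e-06). A region 10.1 kb from S100a9, a calcium-binding alarmin, rose by 0.51 (adjusted p = 0.01997). Near monocyte, macrophage and dendritic cell genes 2 of 13 rose (15.4%) and 0 fell (median 0.21), both upstream of Ly6c2, a monocyte surface gene, at 0.49 and 0.45 (adjusted p = 0.0227 and 0.0448). The S100a9 and Ly6c2 regions overlapped between groups and did not pass with background scaling. Granulocyte marker genes had a peak at 4 to 5 of 5 genes in IL-1β and in baseline libraries alike, and the part of granulocyte content in these rises was not tested.

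Of 61 regions near haematopoietic transcription factor genes 5 rose (8.20%) and 2 fell (3.28%), close to 6.42% and 3.4% of all regions (median -0.07). With the mouse block 7 rose and 5 fell, beside 9.62% and 5.19% of all regions. With background scaling 0 rose and 10 fell, beside 0.813% and 9.39% of all regions. A region 63.0 kb from Cebpb, a factor of emergency granulopoiesis, held 97.1 to 119 scaled reads (median 101.4) in the IL-1β libraries, against 58.2 to 94.2 (median 87.8) in the baseline libraries, a small change without overlap (log2 change 0.32, SE 0.08, limma adjusted p = 0.0142). Near Runx3, 39.8 kb upstream, reads rose by 0.55 with overlap (adjusted p = 0.0153). Of 26 regions near stem cell and growth factor receptor genes 3 rose (11.5%) and 0 fell, and with background scaling 0 rose and 2 fell. Far upstream of Cxcr4, the receptor that retains stem cells in marrow, regions at 195 kb and 113 kb rose by 0.61 and 0.30 (adjusted p = 0.00207 and 0.00733). The second of these turned to -0.12 (adjusted p = 0.317) on the deposited fold. None of these rises passed with background scaling.

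Glucose and insulin genes had 35 intergenic regions, of which 4 rose (11.4%) and 0 fell (median 0.02), beside 6.42% and 3.4% of all regions. With the mouse block 7 rose and 1 fell, beside 9.62% and 5.19%. With background scaling 1 rose and 2 fell, beside 0.813% and 9.39%. Both named rises lay downstream of Pfkfb3, an enzyme that drives glycolysis, inside the non-coding Gm31990. The region at 41.4 kb, chr2:11429347-11430041, held 51.4 to 75.2 scaled reads (median 63.9) in the IL-1β libraries, against 25.9 to 44.0 (median 38.02) in the baseline libraries, without overlap (log2 change 0.83, SE 0.11, limma adjusted p = 1.63e-05), and with background scaling it changed by 0.56 (adjusted p = 0.0188). That at 29.0 kb rose by 0.41 (adjusted p = 0.00348) and did not pass with background scaling (adjusted p = 0.496). Of 16 regions near chromatin and looping genes 1 rose (6.25%) and 0 fell, 81.2 kb upstream of Tet2, a dioxygenase of 5-methylcytosine that restrains stem cell growth. It held 45.8 to 56.4 scaled reads (median 49.8) in the IL-1β libraries, against 27.2 to 42.2 (median 35.0) in the baseline libraries, without overlap (log2 change 0.54, SE 0.10, limma adjusted p = 0.000899), and did not pass with background scaling.

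Lists of other cell types held few ubiquitous intergenic regions. None of 4 regions near erythroid genes, 3 near B cell genes and 2 near mast cell and basophil genes rose or fell, beside 6.42% and 3.4% of all regions. Of 6 near T and NK cell genes 1 rose, 16.2 kb upstream of Tcf7 (0.48, adjusted p = 0.0463), and 1 fell, 263 kb from Gata3 (-0.60, adjusted p = 0.0485). Of 15 near megakaryocyte and platelet genes, all near Thbs1, 1 rose (0.75, adjusted p = 0.0124). Of 10 near stroma and endothelium genes 1 rose and 2 fell. The rise lay 106 kb from Kdr, the VEGF receptor (0.82, adjusted p = 0.00386), without overlap. With background scaling the rises near Tcf7, Thbs1 and Kdr did not pass (adjusted p = 0.440, 0.115 and 0.0740). The fall near Gata3 did, as every equal-median fall did, which adds no support for it. The groups overlapped near Gata3, and 1 mouse was higher after IL-1β. A fall 144 kb from Pdgfra held 20.2 to 27.9 scaled reads (median 22.9) in the IL-1β libraries, against 29.1 to 38.3 (median 35.6) in the baseline libraries (log2 change -0.54, SE 0.12, limma adjusted p = 0.00404), without overlap.

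Beyond protein-coding genes, 1930 intergenic regions (28.4%) overlapped other annotation. A non-coding start site lay in 330 of them and a tRNA gene in 77. Each region was then put in 1 class only, taken in the order antigen receptor locus, tRNA gene, start site, microRNA gene, body of a long non-coding RNA, pseudogene and other small RNA, which left 321 regions in the start site class, 1331 in the body class and 114 in the pseudogene class. Regions at non-coding start sites were stronger than those with no annotated gene in 15 of 16 libraries, with a median fold of 8.89 ± 0.80 against 8.31 ± 0.97 (SD, n = 16 libraries). They were also wider, 721 bp against 550 bp. Of the 321 in the class, 23 rose and 12 fell (7.17% and 3.74%), and inside long non-coding RNAs 139 rose and 70 fell (10.4% and 5.26%), beside 6.42% and 3.4% of all regions. Among all intergenic regions 8.68% rose and 5.10% fell. The start site shares lay below these, and the fallen share inside long non-coding RNAs lay close.

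The start site of Gm40491, whose window printed above holds 2 AP-1 sites, lies 46.4 kb from Irf2bpl and held 98.1 to 132 scaled reads (median 113) in the IL-1β libraries, against 61.0 to 83.5 (median 71.6) in the baseline libraries (log2 change 0.63, SE 0.08, limma adjusted p = 8.51e-06), without overlap. The Gm19705 window holds no AP-1 or PU.1 site, and its region, 52.7 kb from Zfp281, also rose. It held 72.9 to 92.8 scaled reads (median 78.9) in the IL-1β libraries, against 43.6 to 64.8 (median 57.4) in the baseline libraries, again without overlap (log2 change 0.55, SE 0.08, limma adjusted p = 3.79e-05). The start site of Gm31583, 100.9 kb from Bcl6, a repressor of inflammatory genes, held 44.3 to 63.0 scaled reads (median 54.1) in the IL-1β libraries, against 24.7 to 47.1 (median 37.2) in the baseline libraries, with overlap (log2 change 0.55, SE 0.11, limma adjusted p = 0.00134). Near Hbs1l, the Gm33728 start site with its AP-1 site held 16.4 to 35.5 scaled reads (median 26.5) in the IL-1β libraries, against 10.2 to 24.7 (median 11.9) in the baseline libraries, with overlap (log2 change 0.82, SE 0.16, limma adjusted p = 0.00140). Morrbid, whose window holds AP-1 and PU.1 letters, held 35.5 to 59.6 scaled reads (median 41.7) in the IL-1β libraries, against 15.99 to 39.3 (median 33.6) in the baseline libraries and was higher in 7 of 8 mice (log2 change 0.52, SE 0.14, limma adjusted p = 0.0163). None of these 5 passed with background scaling, where their adjusted p ran from 0.0540 to 0.324.

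Gm46838, 24.1 kb from Rap1a, rose most among start sites (log2 change 0.98, SE 0.15, limma adjusted p = 0.000144) and passed with background scaling (0.71 (adjusted p = 0.0218)). The largest fall was at Gm46828, 26.5 kb from Lmo4, a LIM-only cofactor, whose window holds neither AP-1 nor PU.1 letters. It held 29.1 to 45.2 scaled reads (median 31.4) in the IL-1β libraries, against 52.6 to 81.4 (median 62.4) in the baseline libraries (log2 change -0.92, SE 0.11, limma adjusted p = 8.51e-06), was lower in 8 of 8 mice without overlap, and changed by -1.19 (adjusted p = 4.46e-09) with background scaling. Every equal-median fall passed on that scale, so this pass adds no support for the fall. Dancr and Snhg15 were much stronger, with mean folds of 19.4 and 17.8. Dancr held medians of 111 scaled reads after IL-1β and 106 at baseline (adjusted p = 0.776). Snhg15 held 108 and 99.2 (adjusted p = 0.739), and in both the groups overlapped.

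Regions at tRNA genes varied little. The 77 regions covered 106 of the 408 tRNA genes in the table. Beside 6.42% risen and 3.4% fallen among all ubiquitous regions, 1 of the 77 rose and 0 fell. Their log2 changes had an SD of 0.10, against 0.30 for all intergenic regions and 0.26 for the intergenic regions with the most reads, although their median of 40.3 scaled reads lay below the 49.5 of that class. They were wide, with a median of 836 bp, and only 22.1% had a single summit in every library. Regions near gene ends shared much of this. Their SD was 0.16, their median width 907 bp, and 23.0% had a single summit in every library. Calls were also few among them, with 2.77% risen and 1.46% fallen, and the difference from the tRNA regions was not tested. Near-identical tRNA copies can share reads, so values at the tRNA regions are uncertain.

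**Figure D5:**
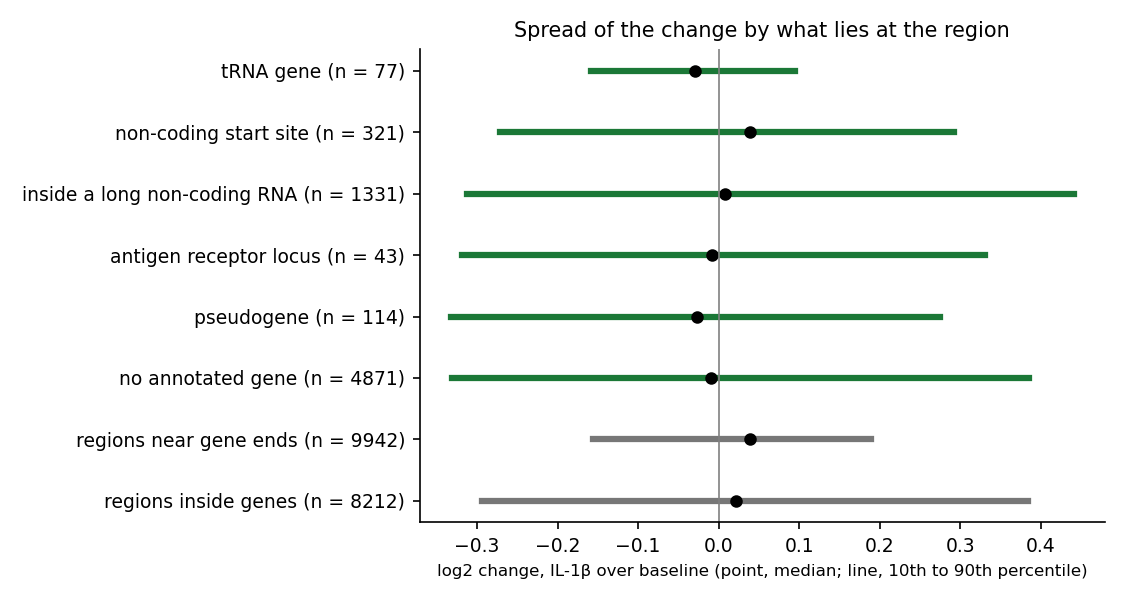
Log2 change after IL-1β by what lies at the region, with the median as a point and the 10th to 90th percentile as a line, for intergenic regions (green) and the other ubiquitous regions (grey). The tRNA gene line is the shortest, from -0.16 to 0.09, and that for intergenic regions with no annotated gene runs from -0.33 to 0.39.

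Antigen receptor loci held 43 of the regions, 27 in the immunoglobulin heavy chain locus, 10 in the T cell receptor β locus and 2 each in the κ light chain, T cell receptor α and γ loci. Their mean folds in the heavy chain locus ran from 4.57 to 12.6. In this locus 2 regions rose and 0 fell, and in the β locus 1 rose and 2 fell. Of all 43 regions 4 rose (9.30%) and 2 fell (4.65%), close to 8.68% and 5.10% of all intergenic regions. Among all ubiquitous regions 6.42% rose and 3.4% fell. A region of the α locus near Dad1, which encodes a subunit of oligosaccharyltransferase, had a log2 change of 1.09 and rose. The libraries had been depleted of cells with CD3, CD4 or B220, and T and B cell marker genes had a peak at 1 to 4 and 2 to 4 of 5 genes, and the part of remaining lymphocytes in these calls was not tested.

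No intergenic region passed the threshold between diabetic and control mice. In limma 0 of 6801 regions passed an adjusted p of 0.05 between diabetic and control mice at baseline, 0 after IL-1β and 0 for the difference of the IL-1β change between phenotypes, with smallest adjusted p of 0.423, 0.970 and 0.9998, and 0% of all 24955 regions passed in each. At an unadjusted p below 0.05, 368 were higher and 411 lower in diabetic baseline libraries, or 5.41% and 6.04%, beside 7.08% and 4.72% of all regions. After IL-1β the counts were 221 and 134 (3.25% and 1.97%), beside 2.94% and 1.41% of all regions. The difference of the IL-1β change gave 95 and 49 (1.40% and 0.720%), beside 0.918% and 0.749%. These counts leave small differences undetermined with 4 mouse samples per phenotype.

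On the deposited fold in place of reads, 1 region passed at baseline, 71.7 kb from Rsph3a, a radial spoke protein of cilia, at chr17:8051237-8051538 (log2 difference -0.66, SE 0.10, limma adjusted p = 0.0366). Its scaled reads were 18.1, 16.8, 19.2 and 18.9 in diabetic baseline libraries, against 29.0, 26.7, 23.7 and 27.5 in control baseline libraries. After IL-1β they were 19.1, 18.7, 22.1 and 21.5 in diabetic mice, against 25.4, 29.8, 28.5 and 27.9 in control mice. Diabetic libraries stood below control libraries in both states without overlap, and the fit on reads gave -0.55 at baseline (adjusted p = 0.423). Both states come from portions of the same mice, so they are not independent. The region was picked because it passed in this alternative fit.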

How the data were processed

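The deposited data are 16 peak lists, 1 per library. Per the labels' protocols, each library came from nuclei of 50000 cells treated with Tn5, was freed of fragments above 1200 bp and was sequenced with single 50-bp reads. The submitters' processing notes name the build mm10 and the tools MACS2 2.1.1, Bowtie2 2.2.6, edgeR, DiffBind 2.4.8, FastQC 0.11.3 and Trim Galore 1.8. Tn5 shifting and duplicate removal are not given in the sources used here; either step changes reads per summit. Each deposited line gives a score, a fold (a ratio over local background), a −log10 p, a −log10 q and a summit offset, all written by the authors' peak caller. The score was not used.

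In MACS2 the fold is (n + 1) / (λ + 1) for n reads and a background of λ, and the p is Poisson with mean λ. Solving both returns whole reads; the solution met the deposited −log10 p within 0.001 for at least 99.9987% of summits per library. Log2 reads at the highest summit, divided to equal medians, were fitted on all 24955 ubiquitous regions in limma 3.58.1 (R 4.3.3) with 4 group means and a trended variance. Genes were the 21887 protein-coding genes of RefSeq's GRCm38.p6 table. Tables were built with Python 3.11.15 and pandas 2.3.3, and scripts were tested on simulated data.

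The regions, the 16 gene lists and the tests were chosen with earlier results of these data known. Named regions are, per distance class, the 4 regions that rose most and the 4 that fell most past the threshold, at most 1 for a nearest gene, and the 2 strongest; the 2 farthest; the 2 on each side of the 1 kb limit; and 2 regions per list past the threshold, within 500 kb of a listed gene. The 12 genes with the most regions, the non-coding start sites and the microRNAs were added after their values were seen. Some items named by the rules are left out here.

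Libraries pair within a phenotype, because the series design says that each mouse sample was divided and its portions share a number. In diabetic mice 1 to 4 the deviations of paired libraries from their group means correlated by 0.40, 0.19, -0.04 and 0.33 over all ubiquitous regions, and in control mice 1 to 4 by 0.42, 0.36, 0.01 and 0.07. Alternatives were background scaling, cyclic loess, the deposited fold, reads summed over summits, regions called in at least 12 libraries, a minimum −log10 q of 5, a mean of at least 20 reads, each library left out, and a mouse block. No intervals are given for single libraries, because recovered reads without molecular identifiers carry more than counting error.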

Additional observations from a re-analysis of the deposited data

Results flagged for a closer look

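In 10 of 228 groups of 4 libraries, over the named regions and the median strengths, the lowest or highest library stood far from the other 3 by the gap rule of Dixon. Chance flags about 1 in 20 groups. Values are scaled reads. Diabetic baseline replicate 4, the library with the lowest background, was lowest at 2 regions: 10.2 upstream of Itgam, where the other 3 held 34.2 to 34.6, and 21.8 upstream of Agps, where they held 43.3 to 47.3. Diabetic IL-1β replicate 4 was lowest near Thbs1 with 11.4 (others 22.4 to 23.3) and near Gata3 with 15.2 (others 15.89 to 15.95), and highest near Ankrd12 with 49.4 (others 41.7 to 43.0). Diabetic IL-1β replicate 2 was lowest at the Pfkfb3 region 29.0 kb away with 50.5 (others 59.5 to 61.3). Control IL-1β replicate 2, the library with the fewest peaks, was lowest near Mefv with 25.7 (others 50.7 to 53.5). Control IL-1β replicate 3 was lowest at Dusp6, 30.2 kb away, with 23.8 (others 30.0 to 31.1). Control baseline replicate 3 was lowest near Uspl1 with 95.4 (others 112 to 114), and control baseline replicate 4 was highest near Gm15319 with 68.7 (others 46.7 to 48.7). Causes were not tested.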

How the results depend on the processing

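Rises and falls over all intergenic regions kept within 1.5 times of the main counts under cyclic loess, reads summed over summits, regions called in at least 12 libraries and a mean of at least 20 reads, except that summed reads gave 56 falls at 1 to 10 kb. Scaling by background gave 97 rises and 875 falls; by class from near to far, 29, 45 and 23 rises and 239, 357 and 279 falls. The deposited fold gave 315 rises (99, 131 and 85 by class), 92 falls at 10 to 50 kb and 79 over 50 kb, and 1 call between diabetic and control mice at baseline. A minimum −log10 q of 5 per peak left 4396 intergenic regions, with 390 rises, 123 of them at 1 to 10 kb and 101 over 50 kb, and median folds of 8.89, 9.55 and 9.77 from near to far. The mouse block gave 850 rises and 510 falls, with 134 falls at 1 to 10 kb; the block moved no other count over all intergenic regions or a distance class by over 1.5 times.

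Leaving out each library in turn gave 459 to 778 rises and 256 to 581 falls; by class from near to far, 146 to 240, 193 to 319 and 120 to 219 rises, and 63 to 176, 103 to 242 and 87 to 163 falls. The highest counts of rises and of falls, in total and in each distance class, came without diabetic baseline replicate 4. The number of intergenic regions ran from 6802 to 7816. Diabetes comparisons stayed at 0 calls. Of 54 named regions, 38 kept direction and side of the threshold with background scaling, 40 on the deposited fold and 52 with the mouse block, under which the regions near Pcdh18 and Prkch passed. On the deposited fold 3 turned direction, to -0.12 at Cxcr4 (113 kb away), 0.34 at Dusp1 and 0.0219 at Tsc22d3; the cause was not tested. Regions with few reads limit what can be called, and the rule on all 16 libraries leaves out regions that gained or lost a peak. Shares of all ubiquitous regions are given only for equal medians, background scaling and the mouse block. The other counts of rises and falls in this section cannot be set beside such a share.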

Other observations

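The share of ubiquitous regions that were intergenic differed between chromosomes. It was 34.3% on chromosome 13, 33.4% on chromosome 12 and 32.9% on chromosome 10, against 21.5% on chromosome 8, 21.7% on chromosome 11 and 22.3% on chromosome 7. Chromosome X held 125 of its 534 ubiquitous regions away from genes (23.4%).

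Of 5387 intergenic regions whose nearest gene has a strand in the promoter table, 55.6% lay upstream of it. The upstream share was 49.9% at 1 to 10 kb, 58.8% at 10 to 50 kb and 58.2% over 50 kb. Upstream and downstream regions rose alike after IL-1β, 8.48% and 8.52%, and fell in 5.34% and 5.01%. Small structural RNA genes lay in a few regions. The region at Terc, the RNA of telomerase, had medians of 19.4 scaled reads after IL-1β and 21.1 at baseline (limma adjusted p = 0.788). Regions at Rny1 and Rny3, Y RNA genes, had medians of 39.9 and 34.7 after IL-1β, against 38.1 and 33.9 at baseline (adjusted p = 0.889 and 0.961). The groups overlapped at all 3.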
